A study of Homo sapiens with 6 samples.

Results

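The genes described here are 10 core genes of microRNA processing and silencing, chosen by name from the 22152 genes of the deposited table. They were chosen with earlier results of these data known. They are DROSHA and DGCR8 (the nuclear Microprocessor), XPO5 (precursor export), DICER1 and TARBP2 (the Dicer complex), AGO1, AGO2 and AGO3 (Argonautes), and TNRC6A and TNRC6B (the GW182 scaffolds). All 10 were listed under these names, and all 10 passed the filter on low values, a mean normalized count of at least 10 over the 6 libraries.

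MicroRNAs are cut from long primary transcripts in the nucleus by DROSHA, an RNase III enzyme that works with the RNA-binding protein DGCR8. Exportin-5, the product of XPO5, carries the resulting hairpin to the cytoplasm together with the GTPase RAN, and DICER1 trims it to a duplex with the help of TARBP2. Chaperones of the HSP90 and HSP70 families open Argonaute so that it can take up the duplex. The Argonaute that holds the guide strand recruits TNRC6 proteins, which in turn bring the deadenylases and decapping factors that silence the target. A synthetic mimic enters this route as a duplex at the loading step, downstream of DROSHA, export and DICER1.

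The cells were HaCaT, a spontaneously immortalized human keratinocyte line. Cells of 1 group received a miR-21-3p mimic and cells of the other a negative control (NC) mimic, both at 1 nM, and RNA was taken 48 h after transfection. The labels give polyA RNA and a kit for messenger RNA, whereas the study's methods name small RNA libraries, and the labels were followed here. Each group had 3 biological replicates per the labels. The comparison asks how the HaCaT transcriptome differs when miR-21-3p is supplied.

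The values are gene counts divided by a size factor per library. The library totals recovered from them were 24402972, 24528089 and 26171030 reads for NC libraries 1, 2 and 3, and 24805157, 24975443 and 27982497 reads for miR-21-3p libraries 1, 2 and 3. No 2 libraries were identical. Within a group, pairs of libraries differed by a chi-square of 3.75 to 9.27 per gene, where counting noise alone gives about 1. NC libraries 1 and 2 differed by 9.27, NC libraries 2 and 3 by 5.22 and NC libraries 1 and 3 by 4.86, so distance within the group does not single out 1 of them. NC library 2 was the NC library nearest to the other group: it differed from miR-21-3p libraries 1, 2 and 3 by 5.72, 6.02 and 9.27, and NC libraries 1 and 3 differed from them by 9.69 to 25.4. Values without NC library 2 are given beside the calls below. Since they leave out the control nearest to the mimic libraries, they are a description of how far a call depends on it and no better estimate. Mitochondrial transcripts took 8.91 to 9.42% of the normalized counts in the NC libraries and 8.33 to 8.61% in the miR-21-3p libraries, and their part in the results was not tested.

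Markers of keratinocytes were abundant. Of 10 keratinocyte markers 9 were listed, and they summed to between 284160 and 307720 normalized counts per library, led by KRT5. Among them KRT6A, a keratin of activated keratinocytes, was higher with the mimic (log2 fold change 0.34, limma adjusted p = 0.00203, and 0.36 without NC library 2), and ITGB4, the integrin beta 4 chain, was lower (-0.26, adjusted p = 0.0381). ITGB4 passed also without NC library 2 or miR-21-3p library 2 (adjusted p = 0.00202 and 0.0192) but not without any 1 of the other 4 libraries (adjusted p = 0.134 to 0.145). Few markers of other cell types were listed, and their counts were low beside those of the keratinocyte markers. The single listed fibroblast marker, COL1A1, stood at 560, 390 and 478 in the NC libraries and 372, 378 and 364 in the miR-21-3p libraries, with no overlap (log2 fold change -0.34, limma adjusted p = 0.0635). COL1A1 passed with DESeq2 (adjusted p = 0.0266) and without NC library 2 (-0.48, adjusted p = 0.00179), and in no other fit (0.0521 to 0.211). Without NC library 1 its log2 fold change was -0.22. The melanocyte marker PMEL ranged from 120 to 155 and the monocyte marker CD14 from 58.7 to 92.2. The 2 listed endothelial markers, VWF and CDH5, summed to 1087 to 1197 in the NC libraries and 877 to 925 in the miR-21-3p libraries. CDH5 accounted for that difference. It stood at 477, 286 and 393 in the NC libraries and 165, 178 and 122 in the miR-21-3p libraries (log2 fold change -1.30, limma adjusted p = 0.00258, and -1.49 without NC library 2), while VWF had a log2 fold change of -0.02 (adjusted p = 0.893). HaCaT is a keratinocyte line, so these transcripts are not taken as a sign of other cell types. In bulk RNA, fewer cells holding a transcript and less of it per cell cannot be told apart. None of the listed markers was at 0 in every library. The part of these markers in the results below was not tested, and the other markers of the lists were not analysed here.

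Of the 10 genes, 1 passed the threshold of 0.05 (limma on log2 values, adjusted over all genes tested), XPO5, which was higher with the mimic. Over all 14782 genes tested, 1600 passed, or 10.8%, so 1 of 10 is close to the background. That total depended on single libraries: 545 genes passed without NC library 1, 2963 without NC library 2, 179 without NC library 3, 279 without miR-21-3p library 1, 1540 without miR-21-3p library 2 and 368 without miR-21-3p library 3. The groups did not overlap for 3 of the 10 genes (XPO5 above, TNRC6A and TNRC6B below), against 31.3% of all genes tested. With edgeR on the recovered reads 1 of the 10 passed, again XPO5, against 11.1% of all genes. Without NC library 2, 2 of the 10 passed (XPO5 higher, TNRC6B lower), against 20.0% of all genes. The median log2 fold change of the 10 genes was -0.0020 and that of all genes tested 0.0045, with 5 of the 10 above 0 and 5 below.

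**Figure D1:**
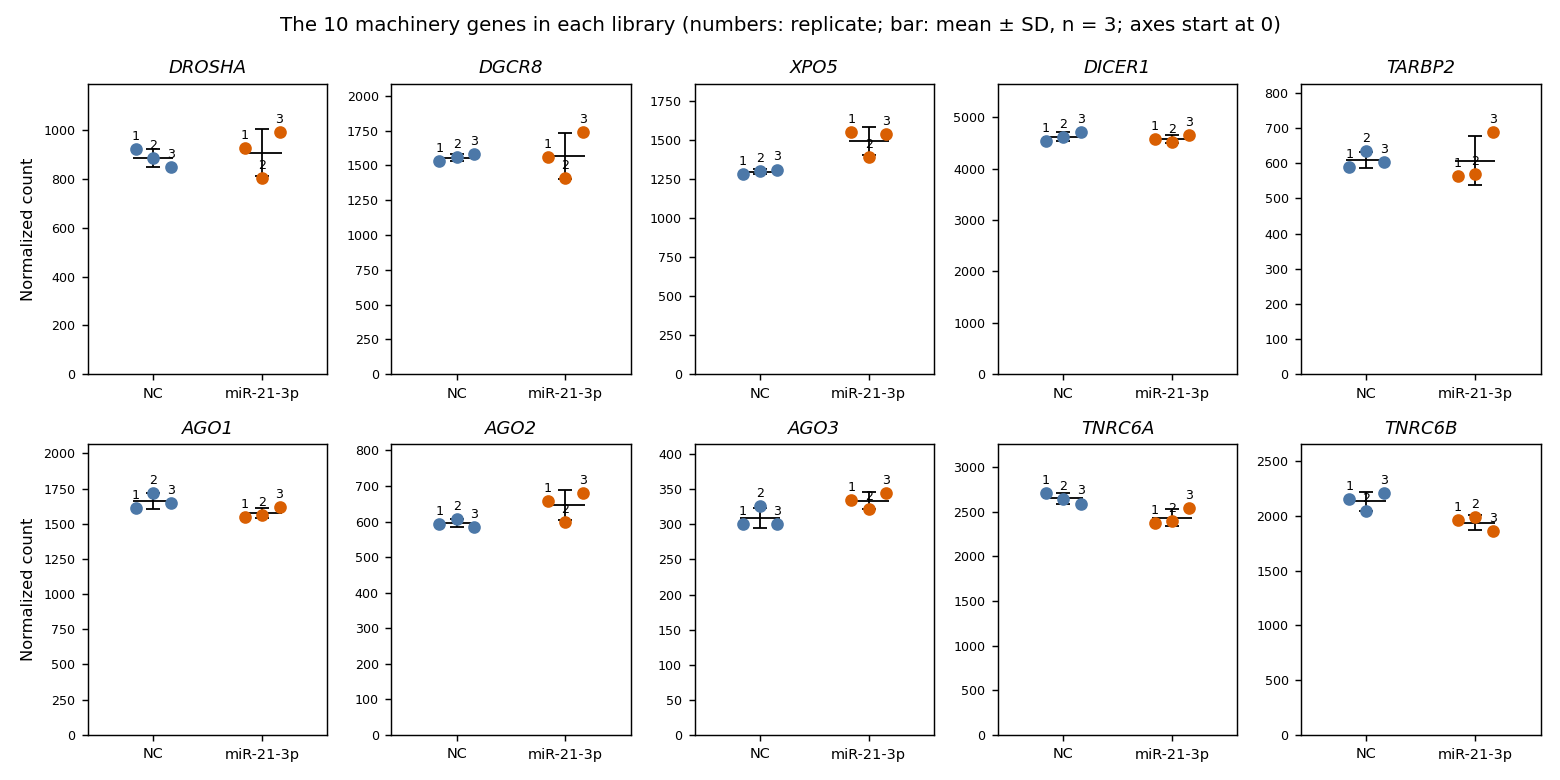
Normalized counts (y axes, from 0) of the 10 machinery genes in the 3 NC mimic and 3 miR-21-3p mimic libraries, each point a library numbered by replicate and each bar the mean ± SD (n = 3). Only XPO5, TNRC6A and TNRC6B have groups that do not overlap, and the group means of every gene lie close together beside its distance from 0.

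The 10 genes had very different levels. Per kilobase of annotated exon, the NC libraries held 376 ± 6.95 (SD, n = 3) normalized counts of DICER1, the highest level, and 14.6 ± 0.696 of AGO3, the lowest. In between came DGCR8 (213), TNRC6A (205), XPO5 (152), TARBP2 (149), AGO1 (120), DROSHA (114), TNRC6B (107) and AGO2 (37.6). The ranges of the 3 NC libraries overlapped for the neighbours DGCR8 and TNRC6A, XPO5 and TARBP2, AGO1 and DROSHA, and DROSHA and TNRC6B, so those orders are not resolved. Exon lengths came from GENCODE 29 and include every annotated isoform, which lowers the level of genes with long, rarely used exons.

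The Microprocessor subunits did not pass the test. DROSHA, the nuclease, stood at 923, 886 and 847 in NC libraries 1 to 3 and at 928, 802 and 992 in miR-21-3p libraries 1 to 3. The miR-21-3p libraries enclosed all the NC values, with the lowest and the highest of the 6, and the log2 fold change was 0.03 (95% CI -0.13 to 0.20, limma adjusted p = 0.824). DGCR8, its RNA-binding partner, stood at 1530, 1560 and 1580 against 1560, 1410 and 1740. Again the miR-21-3p libraries held both extremes, and the log2 fold change was 0.0071 (95% CI -0.14 to 0.15, adjusted p = 0.957). In both genes miR-21-3p library 2 was the lowest and library 3 the highest of the 6. As percentages these intervals run from -8.91 to 14.5% for DROSHA and from -9.26 to 11.3% for DGCR8, so smaller changes in either direction could not be detected.

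DGCR8 is itself a Microprocessor substrate: its messenger RNA carries hairpins that DROSHA cuts, and the mature microRNAs of 1 of them lie within its coding sequence. They are shown because a gene of the list carries them in its own messenger RNA. In RefSeq (GRCh38.p14, plus strand) they lie at chr22:20086072-20086093 and chr22:20086112-20086129, with the seed, bases 2 to 8, in capitals.
hsa-miR-1306-5p: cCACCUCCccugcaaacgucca
hsa-miR-1306-3p: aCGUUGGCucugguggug
The other hairpin of the transcript, MIR3618, was listed at 0 in all 6 libraries. The table lists genes and no mature microRNAs, and cutting was not measured here.

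Of the 11 listed partners of the Microprocessor, 4 were higher with the mimic and 0 lower, where 6.15% of all genes tested were higher and 4.67% lower. This list was drawn up with earlier results of these data known, so the counts describe it and are no test. HNRNPA2B1, an RNA-binding protein of primary microRNAs, stood at 24300, 30200 and 26200 against 33200, 29700 and 34100 (log2 fold change 0.27, SE 0.076, limma adjusted p = 0.0420). Its groups overlap, since NC library 2 lay above miR-21-3p library 2. SRSF3, a splicing factor that marks primary hairpins, had a log2 fold change of 0.25 (adjusted p = 0.0488), and ERH, a small DGCR8-binding protein, one of 0.23 (adjusted p = 0.0389). DDX5, the p68 helicase, rose from 14600, 15300 and 14700 to 16800, 15900 and 16900 (0.15, adjusted p = 0.0493). SRSF3 and DDX5 lay near the threshold, and neither passed with edgeR (adjusted p = 0.0561 and 0.0554). With the replicate block, a term for the replicate number, HNRNPA2B1 and DDX5 did not pass (adjusted p = 0.0563 and 0.138). NC library 2 was the highest of its group for HNRNPA2B1, SRSF3, ERH and DDX5, and without it their log2 fold changes were 0.36, 0.34, 0.27 and 0.17. Without NC library 1 these values were 0.20, 0.16, 0.16 and 0.14. None of these 4 genes passed without NC library 1 or 3 or miR-21-3p library 1 or 3 (adjusted p = 0.0903 to 0.188), and SRSF3 did not pass without miR-21-3p library 2 either (0.0654). The median log2 fold change of the 11 was 0.15.

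XPO5 was the 1 core gene that passed the threshold with all 6 libraries. It stood at 1280, 1300 and 1310 in NC libraries 1 to 3 and at 1550, 1390 and 1540 in miR-21-3p libraries 1 to 3. All 3 miR-21-3p libraries lay above all 3 NC libraries, library 2 by the least. The level was 15.0% higher (log2 fold change 0.20, SE 0.055, 95% CI 0.08 to 0.32, limma adjusted p = 0.0377). The value without NC library 2 was the same, 0.20 (adjusted p = 0.0320), and without miR-21-3p library 2 it was 0.25 (adjusted p = 0.0198). The call was lost without NC library 1 or 3 (adjusted p = 0.0964 and 0.117), without miR-21-3p library 1 or 3 (0.160 and 0.134), and with the replicate block (0.0706). The log2 fold change was positive in each of these fits, from 0.17 to 0.25.

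XPO5 starts back to back with POLH, which encodes the translesion DNA polymerase eta and is read in the opposite direction. POLH was looked up for this position after the value of XPO5 was seen. It stood at 694, 820 and 753 in the NC libraries and 886, 938 and 918 in the miR-21-3p libraries, with no overlap, and was higher as well (log2 fold change 0.28, SE 0.068, adjusted p = 0.0249). Its call held without NC library 2 (0.34, adjusted p = 0.00308) and was lost without any 1 of the other 5 libraries, at adjusted p values of 0.0592 to 0.0962. The RefSeq starts of both genes lie 146 bases apart, and the 74 bases of that interval outside the exons annotated in GENCODE are printed because both transcripts begin around them (GRCh38.p14, chr6:43576076-43576149, minus strand, the strand of XPO5). Capitals mark 2 matches to the GC box GGGCGG, 1 of 8 motifs searched on both strands, which share 1 base.
XPO5 and POLH: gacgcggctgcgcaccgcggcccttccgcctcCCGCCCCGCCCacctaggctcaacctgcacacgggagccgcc
This motif is common: 45% of the 35116 promoter windows of 300 bases in the RefSeq table hold it, as do 48.3% of its 27305 genes in at least 1 window, and so do all 9 of the 10 core genes that matched that table, which AGO2 did not. At its other end XPO5 shares 348 exon bases, 4.08% of its own, with POLR1C, a subunit of RNA polymerases I and III on the opposite strand. Whether counting used the strand is not given in the sources used here, so reads of that stretch cannot be assigned. POLR1C stood at 442, 439 and 436 against 447, 392 and 477 (log2 fold change -0.0058, adjusted p = 0.970).

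**Figure D2:**
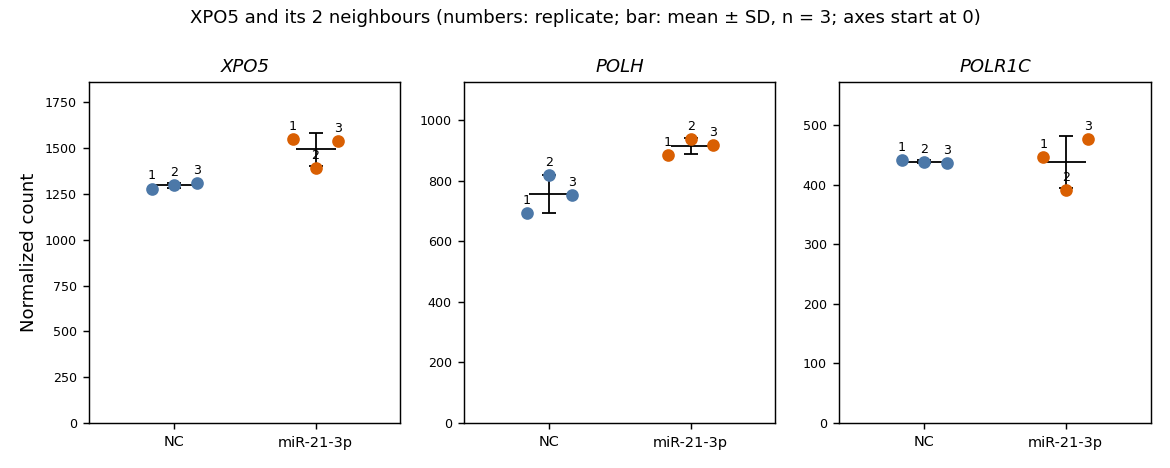
Normalized counts (y axes, from 0) of XPO5, of POLH, which starts beside it, and of POLR1C, which overlaps its end, by group, each point a library numbered by replicate and each bar the mean ± SD (n = 3). XPO5 and POLH are higher in all 3 miR-21-3p libraries, whereas the POLR1C groups overlap.

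RAN, the GTPase that exportins need to bind and release cargo, was also higher with the mimic. It stood at 2740, 3420 and 2970 in the NC libraries and 4080, 3710 and 4290 in the miR-21-3p libraries (log2 fold change 0.41, limma adjusted p = 0.00929). NC library 2 was the nearest of its group to the miR-21-3p libraries, and without it the log2 fold change was 0.49. The call was lost without NC library 3 (adjusted p = 0.0547) and without miR-21-3p library 1 (adjusted p = 0.0526). RAN was the 1 gene of 9 listed in the group of export, dicing and tailing partners to pass, close to the 10.8% of all genes tested. ADAR, the RNA editing enzyme and the most abundant of the group by count, had a log2 fold change of -0.01 (adjusted p = 0.888), and PRKRA, the other double-stranded RNA-binding partner of DICER1, one of 0.06 (adjusted p = 0.560).

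The Dicer complex did not pass the test. DICER1 stood at 4540, 4610 and 4710 in the NC libraries and 4570, 4510 and 4660 in the miR-21-3p libraries. The groups overlapped (log2 fold change -0.01, 95% CI -0.10 to 0.08, limma adjusted p = 0.872). The interval of DICER1 was the narrowest among the core genes. The antisense neighbour DICER1-AS1, which shares 80 exon bases with DICER1, stood at 304, 224 and 262 against 216, 207 and 199 (-0.33, adjusted p = 0.0753). TARBP2, the double-stranded RNA-binding partner, stood at 590, 635 and 605 against 564, 570 and 689. Here miR-21-3p libraries 1 and 2 were the lowest of the 6 and library 3 the highest (log2 fold change -0.01, 95% CI -0.19 to 0.17, adjusted p = 0.943).

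None of the 3 Argonautes among the 10 genes passed, and their fold changes did not share a sign. AGO2, the Argonaute that can cut its target, stood at 594, 607 and 585 in the NC libraries and 657, 600 and 681 in the miR-21-3p libraries. The groups overlapped only through miR-21-3p library 2 (log2 fold change 0.12, 95% CI -0.03 to 0.26, limma adjusted p = 0.279). AGO3 stood at 300, 326 and 301 against 335, 322 and 345, overlapping through NC library 2 (0.11, 95% CI -0.06 to 0.28, adjusted p = 0.378). AGO1 stood at 1610, 1720 and 1650 against 1550, 1560 and 1620, and only miR-21-3p library 3 reached into the NC range (-0.07, 95% CI -0.18 to 0.03, adjusted p = 0.349).

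AGO4, the remaining human Argonaute and part of the wider list, was lower with the mimic. It stood at 1110, 984 and 1110 in the NC libraries and 907, 919 and 834 in the miR-21-3p libraries. All 3 miR-21-3p libraries lay below all NC libraries, of which library 2 was the nearest (log2 fold change -0.27, SE 0.066, 95% CI -0.41 to -0.12, limma adjusted p = 0.0252). Without NC library 2 it was -0.33 (adjusted p = 0.00318), and the call also held without miR-21-3p library 2 (adjusted p = 0.0330). It was lost without NC library 1 or 3 (adjusted p = 0.0850 and 0.120) and without miR-21-3p library 1 or 3 (adjusted p = 0.0816 and 0.105).

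**Figure D3:**
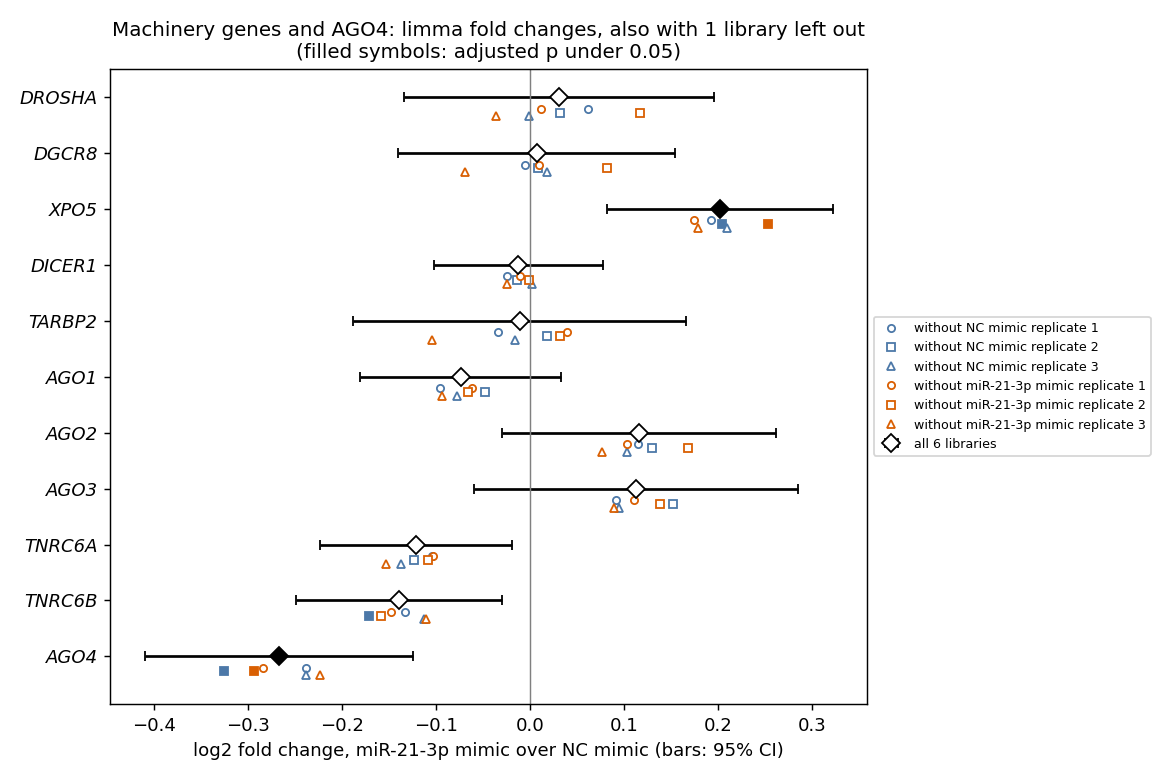
Log2 fold changes of the 10 machinery genes and AGO4 (x axis, miR-21-3p mimic over NC mimic), with diamonds and 95% CI bars for all 6 libraries and small symbols for fits with 1 library left out, filled where the adjusted p is under 0.05. XPO5 (0.20) and AGO4 (-0.27) are the filled diamonds, and TNRC6B is filled only without NC library 2.

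Several genes that load Argonaute were higher with the mimic, but not all of them. Of 17 listed genes of Argonaute loading and turnover, 7 were higher and 2 lower, where 6.15% of all genes tested were higher and 4.67% lower. The other 8 did not pass. The list was drawn up with earlier results of these data known, so these counts describe it and are no test. The median log2 fold change of the 17 was 0.12 and that of all genes tested 0.0045. HSP90AA1, the stress-inducible cytosolic HSP90, stood at 17000, 23800 and 19300 in the NC libraries and 31000, 26300 and 33600 in the miR-21-3p libraries. The groups did not overlap, NC library 2 being the nearest, and the level was 51.9% higher (log2 fold change 0.60, SE 0.11, limma adjusted p = 0.00864). Its call was lost without NC library 3 (adjusted p = 0.0528), and without NC library 2 its log2 fold change was 0.73. HSP90AB1, the constitutive HSP90, was 19.2% higher (0.25, adjusted p = 0.0214). PTGES3, the HSP90 cochaperone p23, stood at 4550, 5280 and 4630 against 5980, 5830 and 5900 (0.30, adjusted p = 0.00976). STIP1, which links HSP70 to HSP90, was higher by 0.38 (adjusted p = 0.0129). AHSA1, which stimulates the HSP90 ATPase, was higher by 0.36 (adjusted p = 0.0173), and FKBP4, an immunophilin that binds HSP90, by 0.24 (adjusted p = 0.0177). NC library 2 was the nearest of its group to the miR-21-3p libraries for each of these 6 genes. Without it the log2 fold changes were 0.31 for HSP90AB1, 0.36 for PTGES3, 0.46 for STIP1, 0.44 for AHSA1 and 0.26 for FKBP4, and all of them passed. HSP90AB1, STIP1, AHSA1 and FKBP4 did not pass without NC library 1 or 3 or miR-21-3p library 1 or 3 (adjusted p = 0.0507 to 0.101). PTGES3 did not pass without NC library 3 (0.0636) or miR-21-3p library 1 (0.0572).

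The following genes of the same group were named after their values were seen. DNAJB1 (log2 fold change 0.04, limma adjusted p = 0.606) and DNAJA2 (0.04, adjusted p = 0.575) did not pass, and their groups overlapped. HSPA4, an HSP70 exchange factor, was higher by 0.21 (adjusted p = 0.0382), and ZSWIM8, the ubiquitin ligase subunit of target-directed microRNA decay, was lower (-0.20, adjusted p = 0.0369). Without NC library 2 they were at 0.25 and -0.25, and with the replicate block neither passed (adjusted p = 0.0609 and 0.0684). Neither passed without NC library 1 or 3 or miR-21-3p library 1 or 3 (adjusted p = 0.0979 to 0.147), nor ZSWIM8 without miR-21-3p library 2 (0.0541). HSPA8, the constitutive HSP70, did not pass: it stood at 7660, 10800 and 8480 against 11600, 9900 and 13600, with NC library 2 above miR-21-3p library 2 (0.38, adjusted p = 0.0564). Without NC library 2 its log2 fold change was 0.53 (adjusted p = 0.00106), and without miR-21-3p library 2 it was 0.50 (adjusted p = 0.0241). HSPA8 passed also with the replicate block and all 6 libraries (0.38, adjusted p = 0.0378). It did not pass with DESeq2 (adjusted p = 0.224) or without NC library 1 or 3 or miR-21-3p library 1 or 3 (0.151 to 0.206), where its log2 fold change went down to 0.27. Pseudogenes named after HSPA8 (17 in GENCODE 29), PABPC1 (13), RAN (9), PTGES3 (5), FKBP4 (5), ERH (2) and STIP1 (1) could share reads with them, so these values are uncertain to that degree. Only names made of the gene symbol, P and a number were counted. HSP90AA1 and HSP90AB1 had 0 names of that form, but pseudogenes named otherwise were not counted, so shared reads are not excluded for them either.

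**Figure D4:**
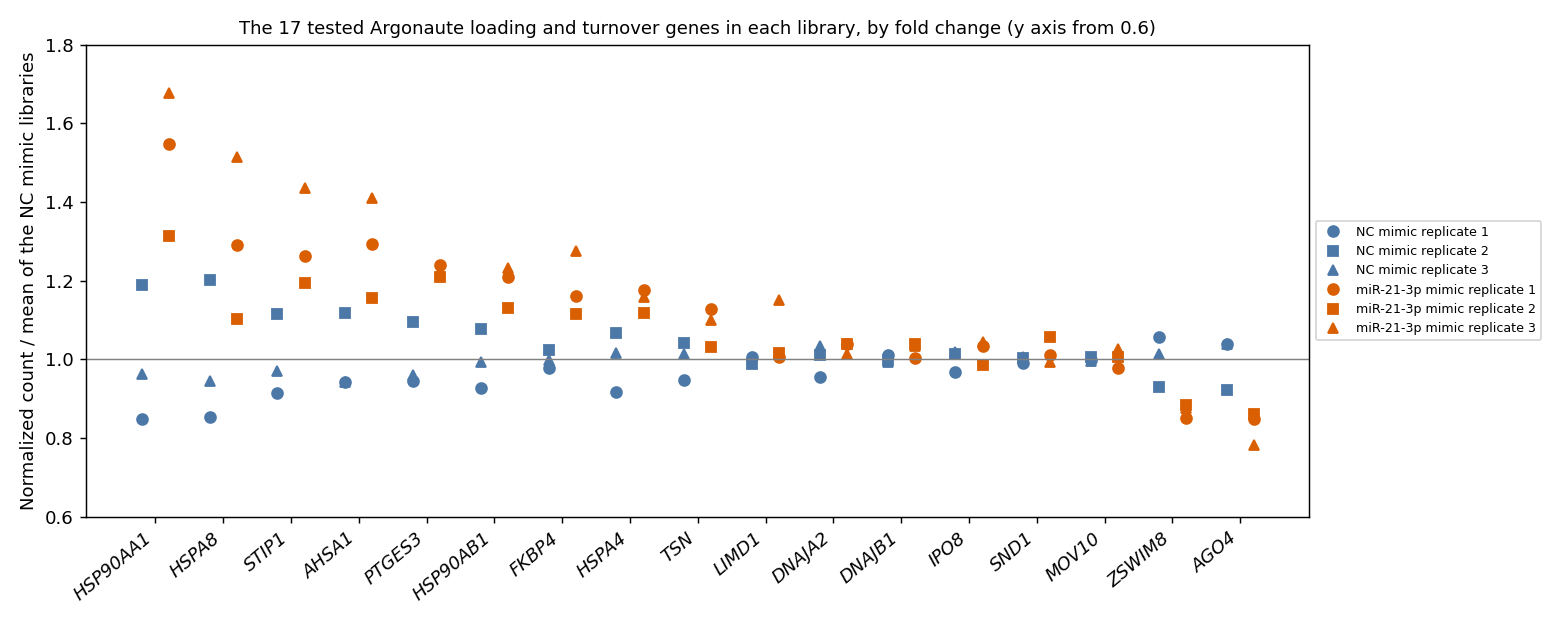
Normalized counts of the 17 tested genes of Argonaute loading and turnover, ordered by fold change, in each library, divided by the mean of the 3 NC mimic libraries (y axis, ratio with no unit, from 0.6), with symbols for the replicate and colours for the group. HSP90AA1 is highest in the miR-21-3p libraries, NC library 2 lies nearest to them for HSP90AA1, HSP90AB1, PTGES3, STIP1, AHSA1 and FKBP4, and ZSWIM8 and AGO4 lie lowest.

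After the values were seen, the RefSeq promoter windows of the 10 genes and of the wider list were searched on both strands for 8 motifs. The windows of 68 genes of the wider list, 4 of them without expression values here, and of 9 of the 10 could be matched. The motif GAANNTTCNNGAA, 3 alternating GAA units of the type heat shock factors bind, was singled out from these 8 afterwards. A gene can have several windows, and was counted when any of them held the motif. The long motif occurs in 0.49% of the 35116 windows and 0.608% of the 27305 genes of the table, in 0 of the 9 and in 5 of the 68. The shorter GAANNTTC, which overlaps it, occurs in 6.77% of windows and 8.21% of genes, in 2 of the 9 and in 9 of the 68. Of the other motifs, the GC box occurs in 57 of the 68. CCAAT occurs in 34.6% of windows and 39.7% of genes, in 7 of the 9 and in 30 of the 68, and CCGGAAGT in 4.14% and 4.95%, in 1 and in 13. TTTGGCGC occurs in 0.652% and 0.795%, in 0 and in 0, TTTCCCGC in 1.63% and 1.98%, in 0 and in 3, and the NRF1 motif in 1.24% and 1.52%, in 0 and in 1. Of the 5 genes with the long motif, HSP90AA1, HSP90AB1 and HNRNPA2B1 were higher with the mimic, where 6.15% of all genes tested were higher. HSPA8 and XPO1, the export receptor exportin-1, did not pass (XPO1 0.17, limma adjusted p = 0.0680). The wider list includes heat shock protein genes by choice. Calls among the other genes of the promoter table with this motif were not looked at, and a link between motif and calls was not tested.

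All 7 matches in these 5 genes are printed in capitals with 8 bases on either side, 5′ to 3′ on the strand of the gene (RefSeq, GRCh38.p14). They are shown as the letters behind the counts, and their likeness follows from the search. The coordinates are those of each printed stretch of 29 bases, and the distances to the start are counted from the first base in capitals. The stretch of HSP90AA1 lies at chr14:102087112-102087140 (minus strand, 88 bases before the start). Those of HSP90AB1 lie at chr6:44247770-44247798 and chr6:44247823-44247851 (plus strand, 165 and 112 bases before the start). Those of HSPA8 lie at chr11:123062346-123062374 and chr11:123062171-123062199 (minus strand, 230 and 55 bases before the start). That of HNRNPA2B1 lies at chr7:26200764-26200792 (minus strand, 38 bases before the start) and that of XPO1 at chr2:61537161-61537189 (minus strand, 94 bases before the start).
HSP90AA1: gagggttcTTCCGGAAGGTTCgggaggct
HSP90AB1, far: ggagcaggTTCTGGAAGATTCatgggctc
HSP90AB1, near: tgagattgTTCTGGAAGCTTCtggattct
HSPA8, far: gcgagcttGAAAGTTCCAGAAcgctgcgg
HSPA8, near: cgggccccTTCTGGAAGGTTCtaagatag
HNRNPA2B1: gtggggggGAAGGTTCTAGAAaagcggcg
XPO1: taggagtgGAAGTTTCCAGAAatatttag
A match is a description of the letters and shows no binding, and binding was not measured here.

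Both TNRC6 scaffolds among the 10 genes had all 3 miR-21-3p libraries below all 3 NC libraries, and neither passed the test. TNRC6A stood at 2710, 2640 and 2590 in the NC libraries and 2370, 2390 and 2540 in the miR-21-3p libraries, with library 3 just under the NC range (log2 fold change -0.12, SE 0.047, 95% CI -0.22 to -0.02, limma adjusted p = 0.112). TNRC6B stood at 2150, 2040 and 2210 against 1960, 1990 and 1860, the gap being narrowest between NC library 2 and miR-21-3p library 2 (-0.14, SE 0.050, 95% CI -0.25 to -0.03, adjusted p = 0.0937). Without NC library 2, TNRC6B passed at -0.17 (adjusted p = 0.0380), the only fit in which it did, while TNRC6A did not (-0.12, adjusted p = 0.122). As percentages the differences were -8.09 for TNRC6A and -9.20 for TNRC6B. TNRC6C, their paralog, had the fewest counts of these paralogs, at 59.4, 67.0 and 61.5 against 51.0, 59.4 and 57.4 (-0.16, adjusted p = 0.515).

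The genes downstream of the scaffolds passed about as often as all genes. Of 21 listed GW182 and deadenylase genes, 2 were higher and 0 lower, against 6.15% and 4.67% of all genes tested. Both encode subunits of the CCR4-NOT complex, which shortens polyA tails. CNOT9, the subunit that binds TNRC6 proteins, stood at 1590, 1720 and 1640 against 1900, 1860 and 2040 (log2 fold change 0.23, limma adjusted p = 0.0212), and CNOT6, a catalytic subunit, at 2530, 2670 and 2550 against 2900, 2860 and 2990 (0.18, adjusted p = 0.0302). Both passed without NC library 2, at 0.26 and 0.20, and with the replicate block CNOT6 did not pass (adjusted p = 0.0800). Both calls were lost without NC library 1 or 3 or miR-21-3p library 1 or 3 (adjusted p = 0.0693 to 0.126). PABPC1, the polyA-binding protein with the most counts of this group, had a log2 fold change of 0.0065 (adjusted p = 0.946). The median of the 21 was -0.01.

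Of 18 listed decapping, decay and P-body genes, 2 were higher and 1 lower, against 6.15% and 4.67% of all genes tested. DCP2, the decapping enzyme, fell from 2590, 2590 and 2650 to 2290, 2320 and 2120 (log2 fold change -0.22, SE 0.049, limma adjusted p = 0.0177). EDC4, the scaffold that activates DCP2, rose from 1700, 1630 and 1610 to 1860, 1820 and 1950 (0.19, adjusted p = 0.0322), so the enzyme was lower and its scaffold higher. FMR1, an RNA-binding protein and the gene of this group with the most counts, was higher by 0.15 (adjusted p = 0.0493) but did not pass with edgeR (adjusted p = 0.0615). The log2 fold changes without NC library 2 were -0.22 for DCP2, 0.18 for EDC4 and 0.15 for FMR1. With the replicate block EDC4 and FMR1 did not pass (adjusted p = 0.0755 and 0.133). All 3 calls were lost without NC library 3 or miR-21-3p library 1 or 3 (adjusted p = 0.0667 to 0.145), and that of FMR1 also without NC library 1 (0.144) or miR-21-3p library 2 (0.111). The median of the 18 was 0.03.

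In all, 19 of the 76 listed genes of the wider list passed, 16 higher and 3 lower, against 10.8% of all genes tested, with a median log2 fold change of 0.04. Since the list was drawn up with earlier results of these data known, this is a description and no test. Leaving out 1 library changed most of the 19 calls. Of the 19, 5 passed without NC library 1, 19 without NC library 2, 0 without NC library 3, and 1, 16 and 3 without miR-21-3p libraries 1, 2 and 3. Over all genes the same fits called 545, 2963, 179, 279, 1540 and 368. Of the 1600 genes called with all 6 libraries, 527, 1558, 176, 274, 1254 and 360 passed in these fits. Calls were thus lost outside the list as well. With the replicate block 12 of the 19 passed. None of the 19 changed sign in any of these fits. The list holds 82 genes, and the expression of the other 6 was not analysed here.

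**Figure D5:**
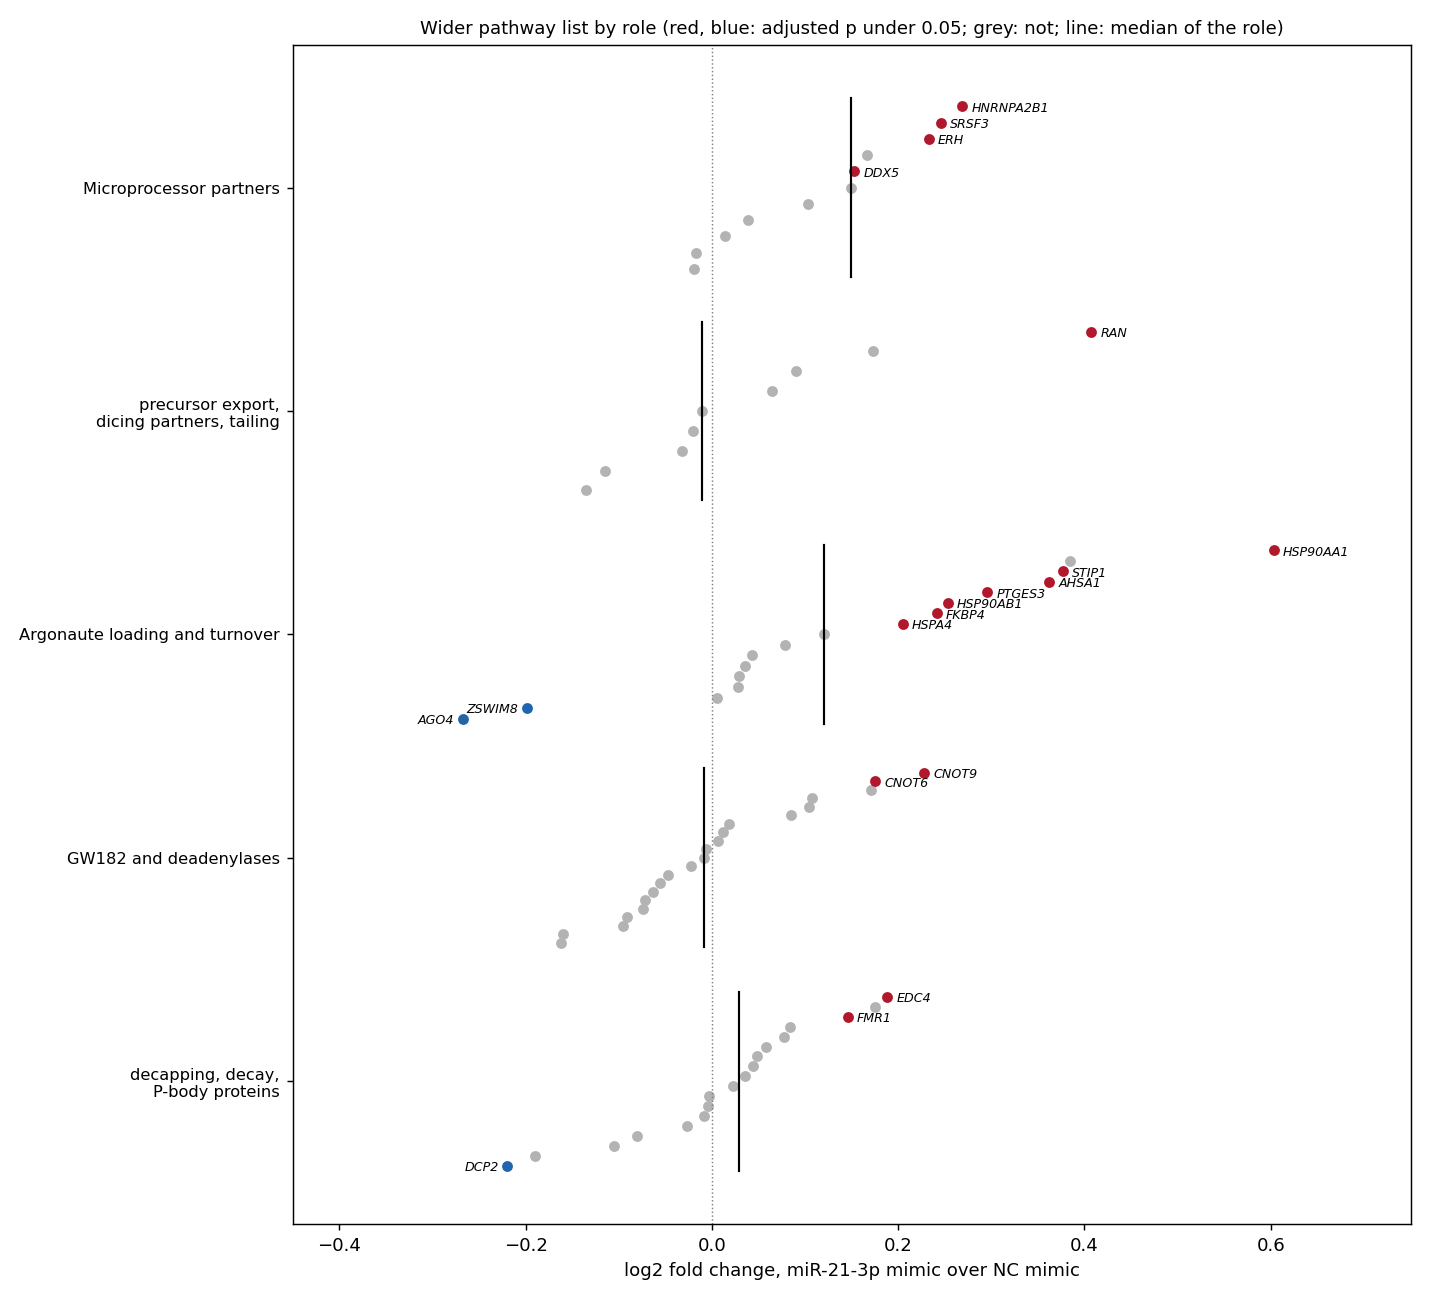
Log2 fold changes (x axis, miR-21-3p mimic over NC mimic) of the 76 listed genes of the wider pathway list, by role, each point a gene, red where higher and blue where lower at an adjusted p under 0.05, with a line at the median of each role. The Argonaute loading group holds 7 red points, up to HSP90AA1 at 0.60, and the Microprocessor partners hold 4.

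Ratios of partner subunits within a library do not depend on library size. For AGO1 to AGO2 all 3 miR-21-3p libraries lay below the NC libraries: the log2 ratio was 1.439, 1.503 and 1.496 in the NC libraries and 1.238, 1.379 and 1.250 in the miR-21-3p libraries, a difference of -0.19. The exact two-sided permutation test gave p = 0.1, the smallest that 3 libraries against 3 allow, and 0.5 after Benjamini-Hochberg adjustment over the 5 ratios, so this test cannot pass the threshold here. For DROSHA to DGCR8, DICER1 to TARBP2, AGO3 to AGO2 and TNRC6A to TNRC6B the differences lay between -0.0032 and 0.024, with exact p values of 0.7 to 1. With 1 library left out each of these differences took both signs, at values from -0.0506 to 0.0797. That of AGO1 to AGO2 stayed negative (-0.23 to -0.16).

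Primary transcripts of microRNA genes are what the machinery takes in, and polyA RNA shows some of them. Of 706 listed microRNA precursor and host gene names, 634 were at 0 in every library and 15 passed the filter, 6 of them host genes. MIR21 was not analysed here. Of the 15, 1 passed the test, against 10.8% of all genes tested: MIR22HG, the host transcript of miR-22, at 791, 664 and 729 against 625, 586 and 583 (log2 fold change -0.28, SE 0.073, limma adjusted p = 0.0317). The groups did not overlap. The call held without NC library 2 (-0.34, adjusted p = 0.00449) and was lost without any 1 of the other 5 libraries (adjusted p = 0.0677 to 0.115). The mature microRNAs of this host were not measured here. They are shown with the seed in capitals (RefSeq, GRCh38.p14, minus strand, chr17:1713952-1713973 and chr17:1713914-1713935), and their seeds differ.
hsa-miR-22-5p: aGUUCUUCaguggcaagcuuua
hsa-miR-22-3p: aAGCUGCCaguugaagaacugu
MIR205HG, the host of the epithelial microRNA miR-205, was the most abundant of the 15, with 8870 to 9630 normalized counts (0.03, adjusted p = 0.715).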

How the data were processed

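HaCaT RNA was sequenced in 3 NC mimic and 3 miR-21-3p mimic libraries. Per the labels, the authors used bcl2fastq 2.18.12, cutadapt 1.15, TopHat2 2.1.1, featureCounts (Subread 1.5.2) and DESeq2. The genome build and the strand setting of counting are not given in the sources used here. The deposited signal values are gene counts divided by a size factor per library, written to 3 significant digits, so counts of 1000 and over are known only to that rounding. Of values below 100, 100% came out whole within 0.1 read.

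An edgeR test on counts had been planned, but since the values are scaled, limma 3.58.1 (R 4.3.3) with a trended prior was run on log2(value + 1) over 14782 genes with a mean of at least 10, with Benjamini-Hochberg adjustment over all of them and a threshold of 0.05. Fold changes are on that scale, which understates low genes. Alternatives were edgeR 4.0.16 (which called 1639 genes with TMM), DESeq2 1.42.0 and limma-voom on recovered reads, no filter, a replicate block and each library left out. TMM in edgeR, pseudocounts of 0.5 and 10, TMM rescaling and a minimum mean of 100 were added after the data were seen. The fits were tested on simulated data.

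Members and lists were chosen with earlier results of these data known. Named genes were the members, AGO4, TNRC6C, PRKRA, up to 6 called genes per role by smallest p, the most abundant gene per role, called microRNA genes with MIR22HG, and markers. MIR21 was also to be named but was not analysed here. HSPA4, ZSWIM8, HSPA8, DNAJB1 and DNAJA2 were added after their values were seen, and POLH after that of XPO5 was seen. DNAJB1 and DNAJA2 are given from the main fit only. Lengths and overlaps came from GENCODE 29 (GRCh38), and promoters and microRNAs from RefSeq.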

Additional observations from a re-analysis of the deposited data

How the results depend on the processing

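Of the 10 members, only XPO5 passed under the edgeR, DESeq2 and limma-voom fits, no filter, a mean of at least 100, both other pseudocounts and TMM rescaling, at log2 fold changes of 0.20 and adjusted p of 0.0366 to 0.0419. With the replicate block it did not (0.20, adjusted p = 0.0706), which left 0 members called and 1202 genes over all. Replicate numbers did not pair the libraries: deviations of same-numbered libraries correlated at -0.0059, -0.20 and -0.17.

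Leaving out 1 library at a time moved the counts most: 179 to 2963 genes called over all, 0 to 2 members, 0 to 23 genes of the wider list and 0 to 3 microRNA genes. Fewer libraries enter those fits. The count over all genes rose from 1600 to 2963 without NC library 2 and was 179 to 1540 in the other fits. In the same fits the log2 fold change of XPO5 was 0.17 to 0.25 and of TNRC6B -0.17 to -0.11. It changed sign for DROSHA (-0.036 to 0.12), DGCR8 (-0.070 to 0.082), DICER1 (-0.025 to 0.0015) and TARBP2 (-0.10 to 0.040). Among other named genes, apart from DNAJB1 and DNAJA2, it did so for ADAR (-0.020 to 0.0037), PABPC1 (-0.035 to 0.044), KRT5 (-0.017 to 0.071), CDH1 (-0.043 to 0.017), PMEL (-0.0030 to 0.18), CD14 (-0.0094 to 0.30) and VWF (-0.044 to 0.033). None of these 11 genes passed in any fit. With no filter, 2 microRNA genes passed, MIR22HG and MIR4444-1. The cause of these changes was not tested.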
